A study of Mus musculus with 6 samples.

Results

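The genes described here are 10 effectors of inflammatory macrophages: the enzymes Nos2, Acod1 and Ptgs2, the arginine transporter Slc7a2, the acute phase gene Saa3, the cytokines Il1b, Il1a, Tnf and Il6, and Inhba, which encodes a subunit of activin A. They were chosen by name from the 32287 features of the gene matrix. The rule uses no measured value, but earlier results of these data were known when the genes were chosen. All 10 had counts, from 91 unique molecular identifiers (UMIs) for Il6 to 50912 for Saa3 over the kept cells. Their levels were compared across cell types gated on other genes, between single mice, and between immunized and unimmunized mice.

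Macrophages and monocytes switch these genes on after microbial products or cytokines act through NF-kB and C/EBP factors. Slc7a2 brings arginine into the cell and inducible nitric oxide synthase, the product of Nos2, turns it into nitric oxide, while Acod1 diverts the citric acid cycle to itaconate and Ptgs2, the inducible cyclooxygenase, starts prostaglandin synthesis. Il1b and Il1a encode the 2 forms of interleukin-1, Tnf and Il6 encode further inflammatory cytokines, Saa3 encodes a serum amyloid A protein made outside the liver, and activin A belongs to the TGF-beta family. In lymph nodes, macrophages of the sinuses and the medulla meet incoming antigen and particles, and monocytes enter from the blood during inflammation.

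CITE-seq, which reads mRNA and DNA-tagged antibodies from the same cells, was run on CD11b hi TOM+ lymph node cells of Cd169Cre/+.Tdtomatofl/fl mice (CD169Tom). Cre from the Cd169 (Siglec1) locus switches on tdTomato in these mice, so TOM marks cells that express Cd169 or did so earlier, and both the immunized and the unimmunized mice carried Cre and reporter. The 2 immunized mice had received hen egg lysozyme (HEL), and nodes were taken 9 days later together with those of 2 unimmunized mice. Mice were over 6 weeks of age; the methods describe HEL linked to an ovalbumin peptide in Sigma adjuvant after transfer of B and T cells, and the sources used here do not say whether these 2 mice received such cells. Each mouse had its own hashtag antibody, and the pooled cells were split over 2 captures.

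Of 18662 barcodes, 12139 were kept with a mouse assigned. They held 18943001 UMIs in 2828 cells of unimmunized mouse 1, 3817845 in 537 cells of unimmunized mouse 2, 39020653 in 4052 cells of immunized mouse 1 and 61983132 in 4722 cells of immunized mouse 2. Cells fell into 13 gates by markers that exclude the 10 genes, which took in 8623 cells and left 3516 ungated. The Inflammatory macrophage-like gate rested on Ccr1, Clec4d, Clec4e and Trem1, since Cxcl3, the last of its 5 markers, was at 0 in 3 of the mice. It held 836 cells, very unevenly spread: 11 from unimmunized mouse 1, 6 from unimmunized mouse 2, 90 from immunized mouse 1 and 729 from immunized mouse 2, and 109 of them lay within 0.25 SD of its cut. The summed level of its 5 markers was much alike in the 4 mice, at 980.2, 1165, 1142 and 1099 CPM (UMI counts of the gene per 1000000 UMIs of the library). The gate selects cells on these markers, so this likeness does not show that the cells were alike otherwise. By the cell counts immunized mouse 2 stands apart, and the main values that rest on it are given with and without it, or for each mouse. The gate also held the 6 C1q macrophage markers, at a summed 386 to 1482 CPM, and the 6 classical monocyte markers, at 582 to 1612 CPM. The 9 neutrophil markers summed to 44.6 to 399 CPM there, with 1 to 6 of them at 0, and the Ly-6G antibody averaged -1.46 to -1.78 (centred log ratio) against 1.12 and 0.87 in the Neutrophil-like gate. In the gate the 7 T cell markers summed to 283 and 261 CPM in unimmunized mice 1 and 2, against 7.33 and 7.32 in immunized mice 1 and 2. The 7 medullary sinus macrophage markers were at 207 and 107 against 44.9 and 10.8 CPM. The 7 migratory dendritic cell markers were at 141 and 521 against 314 and 157 CPM. The few unimmunized gate cells were thus mixed by these lists. What other cell types in the gate contribute to the values below was not tested.

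**Figure D1:**
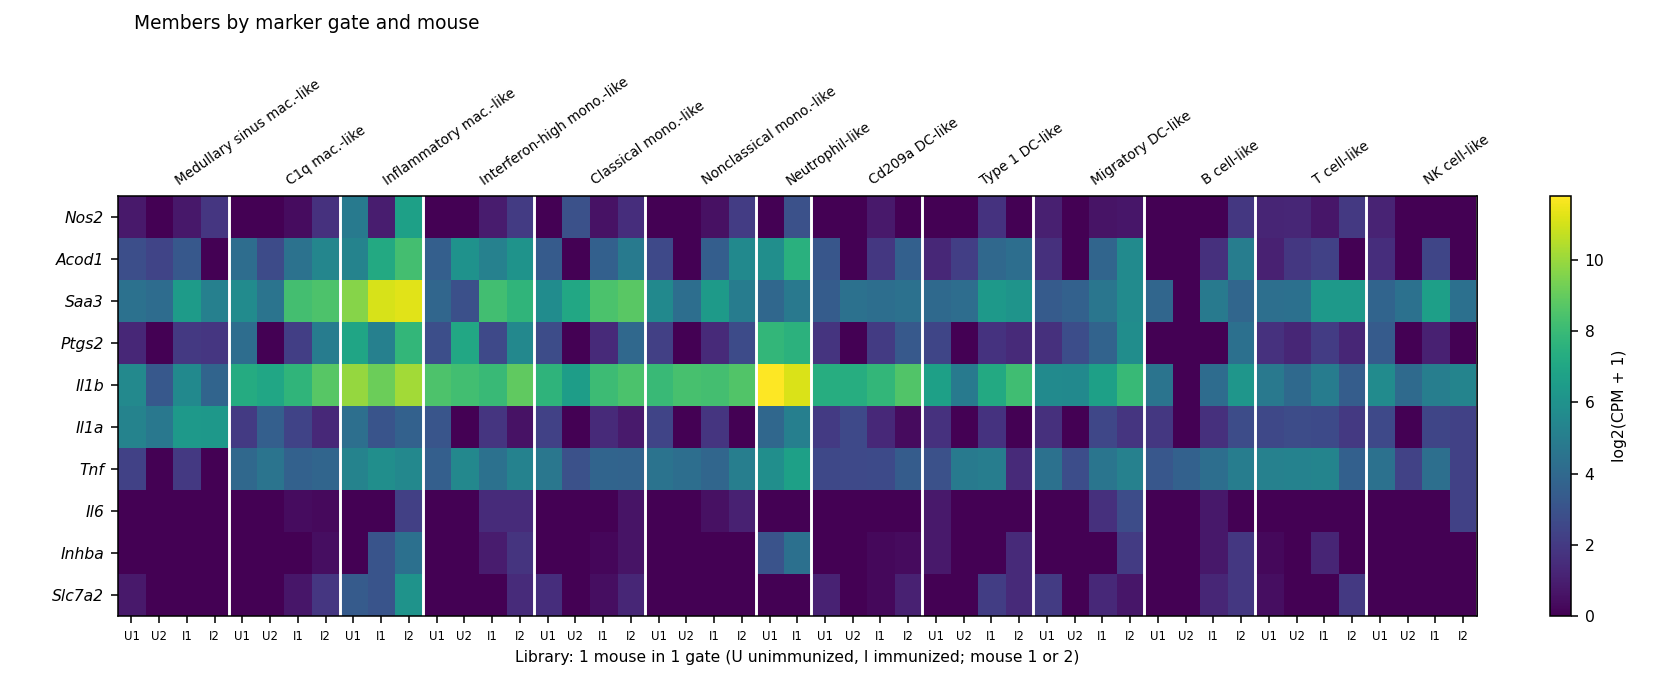
Level of each of the 10 genes as log2(CPM + 1) (colour) in 49 libraries, each the summed counts of 1 mouse (U1 and U2 unimmunized, I1 and I2 immunized) in 1 gate of at least 10 cells. The rows of Acod1, Saa3, Ptgs2 and Il1b are brightest in the Inflammatory macrophage-like and, except Saa3, the Neutrophil-like columns, whereas Il1a is brightest in Medullary sinus macrophage-like cells.

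Most of the molecules of the nitric oxide pair came from the Inflammatory macrophage-like gate of a single mouse. Over all mice that gate gave 84.2% of Nos2 UMIs and 83.1% of Slc7a2 UMIs while it held 9.86% of all UMIs. Without immunized mouse 2 it gave 4 of 42 Nos2 UMIs (9.52%) and 9 of 47 Slc7a2 UMIs (19.1%) and held 2.04% of all UMIs. Nos2 (chromosome 11, 78920787 to 78960254, + strand; positions are GENCODE vM21 on GRCm38) was at 28.3 CPM in the gate in unimmunized mouse 1 (3 UMIs, all in 1 cell), 0 in unimmunized mouse 2, 0.916 in immunized mouse 1 (1 UMI) and 104.7 in immunized mouse 2 (1145 UMIs in 215 of 729 cells). With 65241 UMIs in the gate, the 0 of unimmunized mouse 2 allows up to 46.0 CPM. Nos2 was thus high in a single library with many cells, and the 90 cells of immunized mouse 1 held 1 molecule. In immunized mouse 2 the level was 48.8 times that of the other gated cells of the same mouse.

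Slc7a2 (chromosome 8, 40862396 to 40922308, + strand) was at 9.42 CPM in the gate in unimmunized mouse 1 (1 UMI), 0 in unimmunized mouse 2, 7.33 in immunized mouse 1 and 65.8 in immunized mouse 2. It was 15.3 times the level of the other gated cells in immunized mouse 1 and 31.2 times in immunized mouse 2. Both genes were highest in immunized mouse 2. No order is read among the other mice, since in unimmunized mouse 1 the UMIs of both genes came from the same 1 cell. Over all sorted cells immunized mouse 2 supplied 96.9% of Nos2 UMIs and 94.6% of Slc7a2 UMIs, against 50.1% of all UMIs.

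Acod1 and Ptgs2 were higher in the gate than in the other gated cells in every mouse, on few molecules in the unimmunized mice. The 11 gate cells of unimmunized mouse 1 held 4 Acod1 and 13 Ptgs2 UMIs, and the 6 of unimmunized mouse 2 held 9 and 8. These cells also held markers of other cell types, as given above. Acod1 (chromosome 14, 103046977 to 103056573, + strand) was at 37.7, 138, 143 and 312 CPM in unimmunized mice 1 and 2 and immunized mice 1 and 2, which is 8.74, 24.3, 11.2 and 8.20 times the other gated cells of the same mouse. Ptgs2 (chromosome 1, 150100031 to 150108227, + strand) was at 123, 123, 34.8 and 224 CPM in the same order, or 20.9, 14.1, 7.98 and 8.51 times. For Ptgs2 the lowest and the highest library were both from immunized mice, so the conditions overlapped inside the gate. Neutrophil-like cells, few in number, came next to the gate or above it: Acod1 was at 56.6 and 177 CPM and Ptgs2 at 226 and 190 CPM in unimmunized mouse 1 (22 cells) and immunized mouse 1 (28 cells). By mean over mice the order of the 2 gates was within their spread for both genes, but the means rest on different mice. Within each of these 2 mice, which had at least 10 cells in both gates, Neutrophil-like cells were higher for both genes.

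Saa3 (chromosome 7, 46711998 to 46715700, - strand) was highest in the gate in the 3 mice with at least 10 cells there, at 801 CPM in unimmunized mouse 1, 2199.7 in immunized mouse 1 and 2477.5 in immunized mouse 2; the 6 cells of unimmunized mouse 2 held 3 UMIs, or 46.0 CPM. Against the other gated cells of the same mouse the level was 39.3, 13.2 and 9.45 times higher. The next gate in order, Classical monocyte-like, had a mean of 244 ± 181 CPM (SD, n = 4) against 1826 ± 898 (SD, n = 3), a gap beyond the larger SD, and from there on each step between neighbouring gates was within the spread. C1q macrophage-like cells followed with 185 ± 173 CPM and Interferon-high monocyte-like cells with 132 ± 145 CPM (SD, n = 4 each).

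Among the cytokines, Il1b was found in many myeloid gates, with a mean of at least 112 CPM in all of them but the Medullary sinus macrophage-like gate, at 28.9 CPM. Il1b (chromosome 2, 129364570 to 129371139, - strand) was at 971, 582, 575 and 1139 CPM in the Inflammatory macrophage-like gate in unimmunized mice 1 and 2 and immunized mice 1 and 2, which is 7.59, 6.80, 2.79 and 2.91 times the other gated cells. Neutrophil-like cells held more in the 2 mice with at least 10 of them, 3565 CPM in unimmunized mouse 1 and 2212 in immunized mouse 1. The step from Neutrophil-like to Inflammatory macrophage-like, and from there to Interferon-high monocyte-like cells at 349.6 ± 98.8 CPM (SD, n = 4), was beyond the larger SD. Tnf (chromosome 17, 35199381 to 35202007, - strand) had the same leading gates, at 56.6 and 105 CPM in Neutrophil-like cells and at 37.7, 56.8 and 45.1 CPM in the Inflammatory macrophage-like gate of unimmunized mouse 1 and immunized mice 1 and 2. T cell-like cells came next for Tnf, at 36.0, 36.6, 38.6 and 11.4 CPM. Both steps between these gates were beyond the larger SD, whereas the Interferon-high monocyte-like gate, at 28.3 ± 15.5 CPM (SD, n = 4), was within the spread of the T cell-like gate, at 30.6 ± 12.9 (SD, n = 4).

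**Figure D2:**
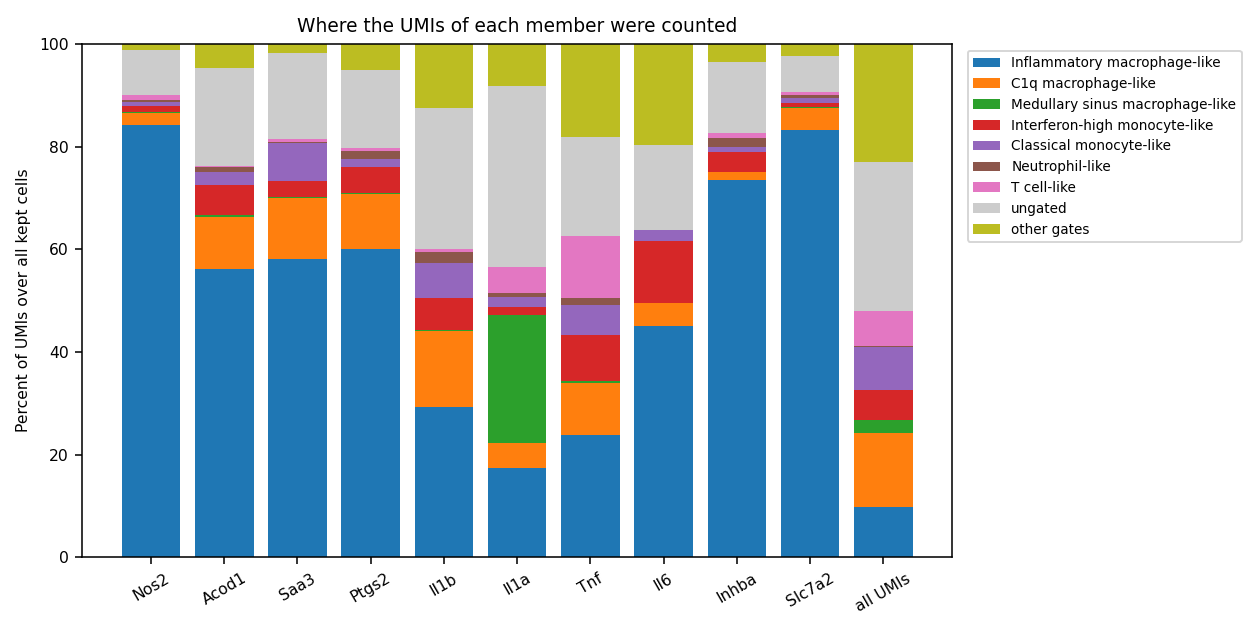
Percent of the UMIs of each gene that were counted in each gate over all kept cells (stacked bars; the last bar is all UMIs of all genes). The Inflammatory macrophage-like gate holds 9.86% of all UMIs but 84.2% of those of Nos2 (9.52% without immunized mouse 2), and Il1a is the gene with the largest Medullary sinus macrophage-like share, 24.9%.

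Il1a and Il1b are neighbours on chromosome 2, with 54597 bases between them, but their levels were ordered differently. Il1a (129299610 to 129309972, - strand) was highest in Medullary sinus macrophage-like cells, at 38.1, 25.8, 81.1 and 78.5 CPM in unimmunized mice 1 and 2 and immunized mice 1 and 2. Both immunized mice lay above both unimmunized mice, and the share of all genes for which this held in these cells was not counted. Against the other gated cells of the same mouse the level was 8.68, 9.11, 26.5 and 19.3 times higher, and these cells gave 24.9% of Il1a UMIs from 2.68% of all UMIs. In the same cells Il1b was at 45.8, 8.60, 48.1 and 13.1 CPM, which is 0.323, 0.210 and 0.0220 times the other gated cells in unimmunized mouse 1 and immunized mice 1 and 2. In the Inflammatory macrophage-like gate Il1a was at 18.8, 0, 7.33 and 11.8 CPM in the same order of mice. The first 2 of these values rest on 2 and 0 UMIs. In both immunized mice Il1a was lower there than in Medullary sinus macrophage-like cells. It was not low against most gates: by mean over mice only Medullary sinus macrophage-like and Neutrophil-like cells were higher. The step from the Inflammatory macrophage-like gate down to C1q macrophage-like cells was beyond the larger SD. Over the 49 libraries, which share mice and captures, the Pearson correlation of log2(CPM + 1) of Il1a and Il1b was 0.04, against 0.81 for Acod1 and Ptgs2.

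Detection was also counted at equal depth, mouse by mouse. After each cell was thinned to 1000 UMIs, which left out 7 Medullary sinus macrophage-like cells, Il1a was found in 14 of 467 of these cells in unimmunized mouse 1 (3.00%, exact binomial interval 1.65% to 4.98%) and in 1 of 70 in unimmunized mouse 2 (1.43%, 0.0362% to 7.70%). It was in 26 of 317 in immunized mouse 1 (8.20%, 5.43% to 11.8%) and in 6 of 90 in immunized mouse 2 (6.67%, 2.49% to 13.9%). The intervals cover counting error within a mouse, and those of unimmunized mouse 2 and immunized mouse 2 overlap with each of the others. Without thinning the shares were 9.70%, 8.57%, 24.9% and 30% in the same order. T cell-like cells, not a usual source of Il1a, showed it in 1 of 296 (0.338%) immunized and 4 of 928 (0.431%) unimmunized thinned cells. Il1b in Medullary sinus macrophage-like cells, at 1.23% and 1.86%, did not exceed its share in T cell-like cells, 1.35% and 2.37%; no expression is read from such a share, and the part of free RNA in it was not tested.

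The promoters of Il1a, which was highest in Medullary sinus macrophage-like cells, and of Il1b and Tnf, which were both highest in Neutrophil-like cells, are shown for comparison. RefSeq promoter windows of 8 of the 10 genes were used, and those of Nos2 and Slc7a2 were not analysed here. Each line gives the 250 bases before the annotated start on the gene's strand in GRCm38.p6, at chr2:129309973-129310222 for Il1a, chr2:129371140-129371389 for Il1b and chr17:35202008-35202257 for Tnf, with the letters TATAAA in capitals.
Il1a: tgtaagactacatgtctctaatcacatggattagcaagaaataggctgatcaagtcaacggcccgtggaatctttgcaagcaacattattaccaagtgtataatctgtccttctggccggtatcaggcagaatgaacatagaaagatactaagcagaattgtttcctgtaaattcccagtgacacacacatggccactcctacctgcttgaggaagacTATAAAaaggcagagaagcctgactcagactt
Il1b: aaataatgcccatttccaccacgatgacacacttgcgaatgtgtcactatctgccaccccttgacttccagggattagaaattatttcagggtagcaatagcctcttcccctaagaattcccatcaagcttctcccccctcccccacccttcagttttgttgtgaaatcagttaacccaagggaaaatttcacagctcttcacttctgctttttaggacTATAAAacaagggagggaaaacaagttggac
Tnf: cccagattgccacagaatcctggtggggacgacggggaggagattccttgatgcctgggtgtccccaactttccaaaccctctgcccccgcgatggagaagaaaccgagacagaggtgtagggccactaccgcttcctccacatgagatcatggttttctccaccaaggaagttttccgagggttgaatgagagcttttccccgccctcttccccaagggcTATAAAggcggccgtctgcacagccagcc
TATAAA, searched on both strands, begins 32, 31 and 29 bases before the start in Il1a, Il1b and Tnf. It was found in the windows of Acod1 and Inhba as well, so in 5 of the 8, and in 12.4% of 32851 RefSeq promoter windows of this length. The NF-kB consensus, also searched on both strands and with no overlap with TATAAA in these windows, was found in Il6 alone of the 8 and in 7.25% of all windows. A match is a description of the letters and not of a bound site.

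**Figure D3:**
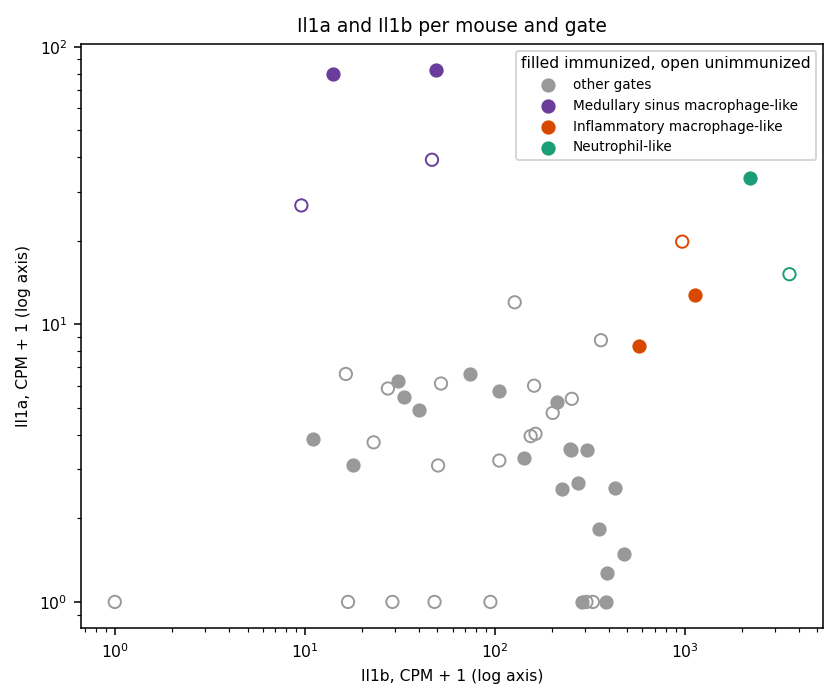
Il1a against Il1b (CPM + 1, both axes logarithmic) in the 49 libraries of 1 mouse and 1 gate, filled for immunized and open for unimmunized mice. The 4 Medullary sinus macrophage-like libraries sit at 25.8 to 81.1 CPM of Il1a with at most 48.1 CPM of Il1b, apart from the Inflammatory macrophage-like and Neutrophil-like libraries at the right.

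The remaining genes were sparse. Inhba (chromosome 13, 16011851 to 16031621, + strand) was at 0 in the Inflammatory macrophage-like gate in both unimmunized mice and at 7.33 and 19.8 CPM in immunized mice 1 and 2, which is 19.8 and 23.0 times the other gated cells; 73.4% of its 305 UMIs came from the gate, and 8 of 36 (22.2%) without immunized mouse 2. The 0 counts of Inhba allow up to 28.3 CPM in unimmunized mouse 1 and 46.0 in unimmunized mouse 2. Both limits lie above both immunized values, so a difference between conditions is not shown in the gate. Neutrophil-like cells held Inhba at 7.07 CPM in unimmunized mouse 1 and 19.6 in immunized mouse 1. Il6 (chromosome 5, 30013114 to 30019981, + strand) had 41 of its 91 UMIs in the gate, all from immunized mouse 2, at 3.75 CPM and 4.94 times the other gated cells. Its highest mean, in Migratory dendritic cell-like cells at 1.96 ± 2.71 CPM (SD, n = 4), did not differ from the gate beyond the spread.

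Tests across gates fitted summed counts per mouse and gate (49 libraries of at least 10 cells, 10751 genes kept by a filter on low counts) with edgeR's quasi-likelihood test and Benjamini-Hochberg adjustment. The gate was set against the other 12 gates, each given the same weight, with 3 mice in it, since unimmunized mouse 2 had only 6 cells there. The filter kept 8 of the 10 genes and dropped Il6 and Slc7a2. Nos2 reached the filter's level in 2 of the 3 Inflammatory macrophage-like libraries and in none of the other 46, and Inhba in 1 of 3 and 1 of 46, so these genes could be tested only where they were high, and no count over the tested genes is drawn from it. Among all genes tested 13.7% were called higher in the gate and 6.96% lower (1472 and 748 genes, against 1243 and 981 by DESeq2).

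Saa3 was 5.06 log2 units higher in the gate (SE 0.21, adjusted p = 3.53e-24), Acod1 3.78 (SE 0.30, adjusted p = 1.17e-13), Ptgs2 4.03 (SE 0.43, adjusted p = 3.43e-10) and Il1b 2.56 (SE 0.25, adjusted p = 6.39e-11). Tnf was 1.50 higher (SE 0.28, adjusted p = 6.33e-05). No fitted value is given for Nos2 and Inhba, whose entry into the test rested on the gate itself; the ratios within mice given above are the measure of their size. Il1a was 1.47 higher (SE 0.38, adjusted p = 0.00321), but without immunized mouse 2 the difference was 0.74 with an adjusted p of 0.587. Without that mouse Saa3 (4.92), Acod1 (3.56), Ptgs2 (3.72), Il1b (2.43) and Tnf (1.61) were still called.

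Of the other gates, the C1q macrophage-like and Classical monocyte-like ones were tested in the same way. Saa3 was 1.65 log2 units higher in C1q macrophage-like cells than in the other gates on average (SE 0.24, adjusted p = 9.85e-07; 12.3% of genes were called higher and 5.15% lower in that comparison) and 2.05 higher in Classical monocyte-like cells (SE 0.24, adjusted p = 3.09e-09; 14.7% higher and 6.69% lower, or 1581 and 719 genes against 1214 and 1146 by DESeq2). These tests weight every gate alike; against all other gated cells of the same mouse, Inflammatory macrophage-like cells included, Saa3 in immunized mouse 2 was at 0.325 and 0.494 times in the 2 gates. Il1a was 1.62 lower in Classical monocyte-like cells by the same test (difference -1.62, SE 0.52, adjusted p = 0.0208), a call lost in 5 of 15 alternatives. Il1b in Classical monocyte-like cells missed the threshold (0.60, SE 0.26, adjusted p = 0.104) and passed it when the mouse was added as a block (0.62, adjusted p = 0.0214).

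Single cells of the gate carried several of the genes at once, most of all in immunized mouse 2. A median of 3 of the 10 genes was detected per Inflammatory macrophage-like cell, 47.6% of the cells had at least 4 and 2.15% had none. Immunized mouse 2 gave 729 of these cells, with a median of 4 genes and 52.0% of cells with at least 4. The 90 cells of immunized mouse 1 had a median of 2 and 18.9%. In unimmunized mice 1 and 2, with 11 and 6 cells, the medians were 2 and 1.5, with 18.2% and 0%. The median over all mice was 2 in Neutrophil-like cells, 1 in C1q macrophage-like and Classical monocyte-like cells, and 0 in T cell-like cells, 62.6% of which had none. These counts are not corrected for depth, and the gate's cells were deep, with median UMIs of 9601.5 to 14166 per mouse against 5689.5 to 6796 in T cell-like cells. Neutrophil-like cells were shallower, with medians of 3111.5 in unimmunized mouse 1 and 3293 in immunized mouse 1. Of all Neutrophil-like cells 15.8% still had at least 4 of the genes. After thinning to 1000 UMIs, immunized Inflammatory macrophage-like cells showed Il1b in 42.2%, Saa3 in 40.7%, Acod1 in 20.02%, Ptgs2 in 15.8%, Nos2 in 7.20% and Tnf in 5.62%, and Slc7a2, Inhba, Il1a and Il6 in 3.30%, 1.83%, 1.47% and 0.244% of 819 cells. The shares without thinning were 88.2%, 62.8%, 75.0%, 44.0%, 26.4%, 25.9%, 19.0%, 10.6%, 7.45% and 2.81% in the same order. In immunized mouse 1 alone the unthinned shares were 66.7% for Il1b, 48.9% for Saa3, 50.0% for Acod1, 13.3% for Ptgs2, 1.11% for Nos2, 25.6% for Tnf and 3.33% for Slc7a2, and thinning left Nos2 and Slc7a2 in 0 of 90 cells, which allows up to 3.33%. In immunized T cell-like cells the thinned shares of Acod1 and Nos2 were 0.676% and 0.338%, and Ptgs2 was in 0 of 296 cells, which allows up to 1.01%.

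Within immunized mouse 2, cells of the gate with Nos2 also held more of most of the other genes. The 115 cells with a Nos2 UMI in capture 1 and the 100 in capture 2 were set beside the 261 and 253 without one. Slc7a2 was 9.43 and 9.69 times higher in the 2 captures, Il1a 4.96 and 4.52 times, Ptgs2 2.66 and 3.01 times, Acod1 2.25 and 2.18 times, Inhba 1.75 and 3.29 times, and Il1b 1.77 and 1.65 times. The ratio of Saa3 was 0.998 and 2.62, so the captures did not give it the same size. That of Tnf was 1.11 and 1.63, and that of Il6 was 1.01 and 1.02. Cells with Nos2 were deeper, with medians of 16684 and 16030.5 UMIs against 13816 and 13204. They carried more CD11c antibody, 1.42 ± 0.80 against 1.00 ± 0.97 (centred log ratio, SD over 215 and 514 cells). Ly-6G was lower, at -1.95 ± 0.48 against -1.71 ± 0.62, and so was Ly-6C, at 2.71 ± 0.80 against 2.91 ± 0.84. Cells of 1 mouse are not replicates, and no test was made.

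Between conditions, the whole sort of each mouse was compared first. It mixes how many cells of each type were present with how much RNA each held, and the 2 cannot be told apart. Saa3 was at 28.7 and 23.0 CPM in unimmunized mice 1 and 2 and at 234 and 664 in immunized mice 1 and 2. Acod1 was at 4.96 and 6.55 against 17.5 and 90.1 CPM, and Il1b at 141 and 112 against 226 and 539. Inhba was at 0.211 and 0 against 0.820 and 4.34 CPM, and Slc7a2 at 0.633 and 0.262 against 0.871 and 13.4. For these 5 of the 9 genes kept by the filter both immunized mice lay above both unimmunized mice, which held for 15.7% of the 13593 genes tested. Inhba, with 4 and 0 UMIs in unimmunized mice 1 and 2, passed that filter through the immunized mice alone, so no weight is put on its place among the 5. The opposite, both immunized mice lower, held for 0 of the 9 genes and for 51.7% of all. Both shares were counted on CPM without the TMM scaling that the fits use, so they do not give how many genes rose or fell with immunization.

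Nos2, Ptgs2, Il1a and Tnf overlapped between conditions, and the size of the Slc7a2 difference rested on immunized mouse 2. Slc7a2 had 12 and 1 UMIs in unimmunized mice 1 and 2 and 34 and 830 in immunized mice 1 and 2. The separation of immunized mouse 1 from unimmunized mouse 1 is thus not established for Slc7a2. Nos2 was at 1.00 and 0.524 CPM against 0.538 and 21.3, and Ptgs2 at 6.18 and 8.64 against 4.92 and 62.0, so immunized mouse 1 lay within or below the unimmunized mice. Il1a was at 7.65 and 5.50 against 9.53 and 4.19 CPM, and Tnf at 19.8 and 15.7 against 15.1 and 21.3. Il6, not kept by the filter, was at 0.211 and 0.262 against 0.282 and 1.21 CPM, on 4 and 1 against 11 and 75 UMIs. Immunized mouse 2 exceeded immunized mouse 1 by 39.7 times for Nos2, 15.4 for Slc7a2, 12.6 for Ptgs2, 5.14 for Acod1 and 2.84 for Saa3, and was at 0.44 times for Il1a.

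**Figure D4:**
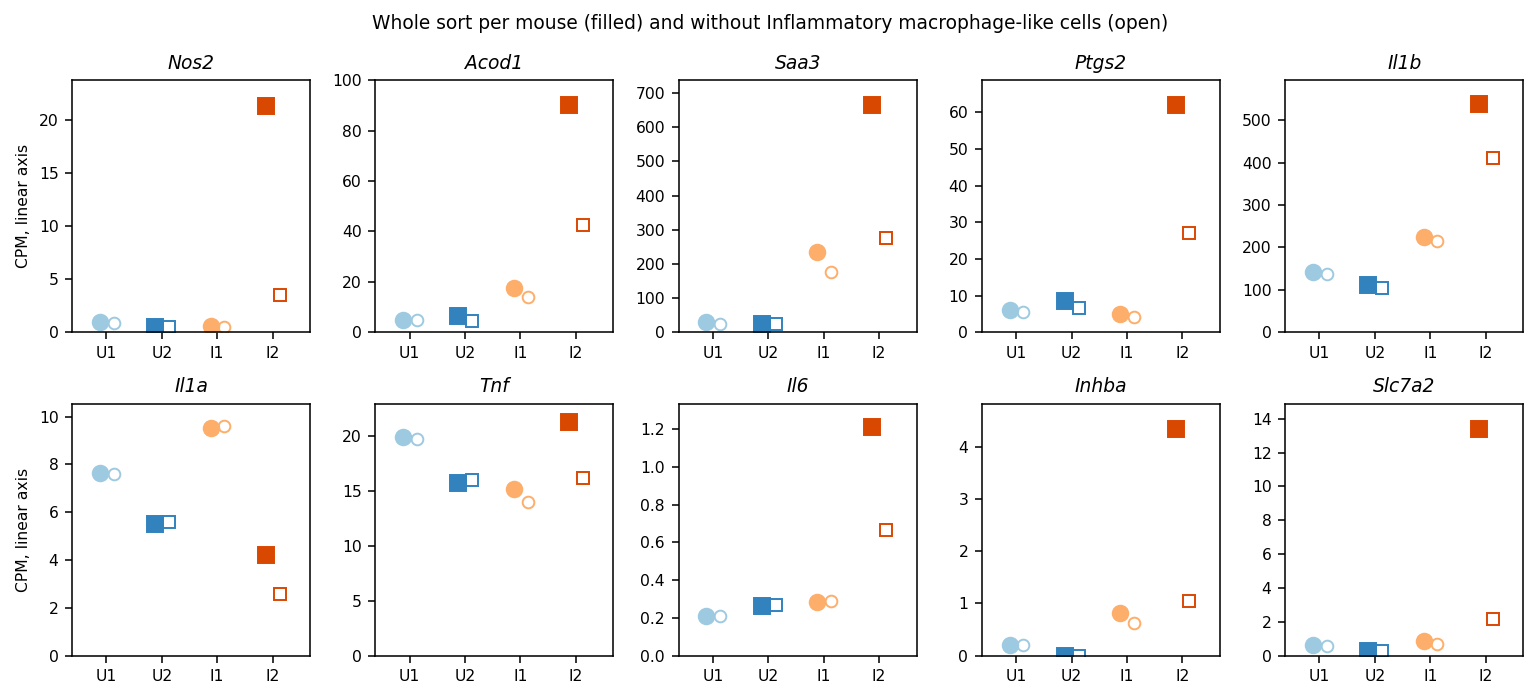
Level of each gene (CPM, linear axis) in all kept cells of each mouse (filled) and without the Inflammatory macrophage-like cells (open); U1 and U2 are unimmunized and I1 and I2 immunized mice, and each point is 1 mouse. Saa3 stays higher in both immunized mice without the gate, at 177 and 276 against 24.3 and 22.7 CPM, whereas Nos2 in I2 falls from 21.3 to 3.49 CPM.

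With 2 mice per condition edgeR's quasi-likelihood test called none of the 9 genes at an adjusted p of 0.05, nor any other gene (0% of 13593); 28.7% of genes had an unadjusted p under 0.05, and DESeq2 called 1556. Of the 5 genes without overlap, the log2 difference by edgeR's test was 4.38 for Saa3 (SE 0.60, adjusted p = 0.107), 3.57 for Acod1 (SE 0.92, adjusted p = 0.111), 1.87 for Il1b (SE 0.46, adjusted p = 0.109) and 4.03 for Slc7a2 (SE 1.56, adjusted p = 0.177). No fitted value is given for Inhba, whose entry into the test rested on the immunized mice. Without the Inflammatory macrophage-like cells the levels were 24.3 and 22.7 against 177 and 276 CPM for Saa3, and 4.78 and 4.26 against 13.9 and 42.5 for Acod1. Il1b was then at 137 and 104 against 215 and 411 CPM, Inhba at 0.212 and 0 against 0.633 and 1.04, and Slc7a2 at 0.584 and 0.266 against 0.685 and 2.15. In these values all 5 genes stayed without overlap, which then held for 16.1% of the 13593 genes. For Inhba the 0 of unimmunized mouse 2 allows up to 0.799 CPM, above the 0.633 CPM of immunized mouse 1, so its separation is not established. Slc7a2 then had 11 UMIs in unimmunized mouse 1 and 26 in immunized mouse 1, and its separation is not established either.

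The comparison within cell types used the 11 gates with at least 10 cells in all 4 mice (44 libraries), which leave out the Inflammatory macrophage-like and Neutrophil-like gates. Of the 10 genes 6 were kept by the filter there. Libraries of the same mouse were treated as independent, so the p-values do not measure the spread between mice alone. By edgeR's quasi-likelihood test, averaged over the gates, Saa3 rose by 2.21 log2 units in immunized mice (SE 0.17, adjusted p = 1.15e-10), Acod1 by 2.17 (SE 0.58, adjusted p = 0.0056) and Il1b by 0.81 (SE 0.18, adjusted p = 0.0014). Ptgs2 (0.95, SE 1.05), Tnf (0.31, SE 0.27) and Il1a (-0.33, SE 0.35) were not called, with adjusted p of 0.618, 0.481 and 0.6. So 3 of 6 rose and 0 fell, where 15.8% of all 10631 genes rose and 5.9% fell (1679 and 627, against 894 and 1171 by DESeq2). The median log2 difference of all genes was 0.04 by edgeR and -0.07 by DESeq2, and the cause of this shift was not tested. Saa3 remained called in all 15 alternatives. Acod1 was not called without immunized mouse 1 (1.13), without unimmunized mouse 1 (4.57) or with a hashtag share of at least 95% (1.83), and Il1b not in capture 1 alone (0.28) or without unimmunized mouse 2 (0.60).

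**Figure D5:**
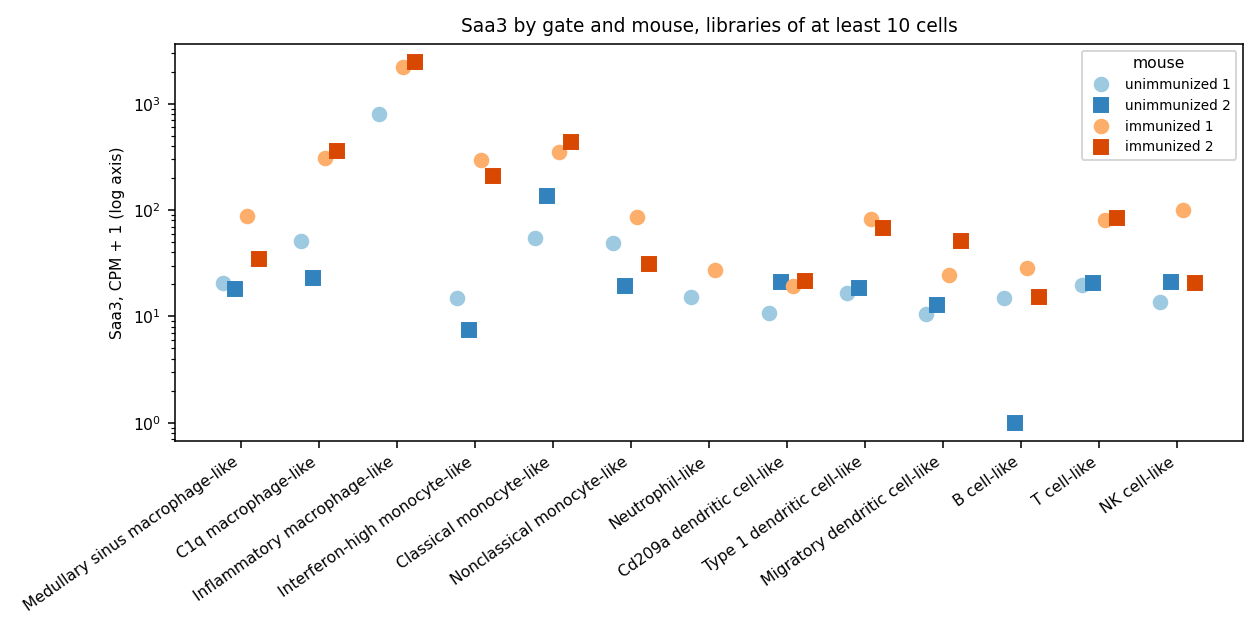
Saa3 (CPM + 1, log axis) in each gate, 1 point per mouse with at least 10 cells in the gate; circles are mouse 1 and squares mouse 2 of each condition. Immunized mice lie above unimmunized mice in the C1q macrophage-like, Interferon-high monocyte-like, Classical monocyte-like and T cell-like gates, and the 3 Inflammatory macrophage-like libraries are highest. The share of all genes with such an order was not counted for single gates.

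Gate by gate, the rise of Saa3 was found in several cell types. In C1q macrophage-like cells it went from 50.3 and 22.0 CPM in unimmunized mice 1 and 2 to 307 and 359 in immunized mice 1 and 2 (3.16 log2 units, adjusted p = 0.00146; 0.0188% of genes were called higher there). In Interferon-high monocyte-like cells it went from 14.0 and 6.45 to 298 and 209 CPM (4.48, adjusted p = 3.06e-05; 0.301% of genes). The 2 unimmunized libraries there had 76 and 17 cells with 644128 and 154983 UMIs in all, so their values rest on few Saa3 molecules and the size is uncertain. In Classical monocyte-like cells it went from 53.1 and 134 to 349 and 439 CPM (2.47, adjusted p = 0.00481; 0.0376% of genes). None of these groups of mice overlapped, but the share of all genes without overlap was not counted for single gates. The calls are by edgeR's quasi-likelihood test.

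Type 1 dendritic cell-like cells went from 15.6 and 17.5 to 81.2 and 67.4 CPM (2.29, adjusted p = 0.0249; 0.922% of genes called higher), a call that was lost in a limma voom fit with a correlation within mice (2.26, adjusted p = 0.108) and that turned in direction in capture 2 alone (-1.11) and with Leiden clusters (-0.31). T cell-like cells, not a usual source of Saa3, went from 18.5 and 19.7 to 80.5 and 82.9 CPM (2.27, adjusted p = 0.00547; 0.433% of genes). Without unimmunized mouse 1, which leaves 1 unimmunized mouse, Saa3 was called in 0 of these 5 gates (adjusted p of 0.253 to 0.861), and without unimmunized mouse 2 in the Interferon-high monocyte-like gate alone. Of 15 alternatives the call was lost in 1 in that gate, 3 in Classical monocyte-like, 4 in C1q macrophage-like, 6 in T cell-like and, with the 2 that turned, 8 in Type 1 dendritic cell-like cells. Thinned to 1000 UMIs, Saa3 was in 5.41% of immunized T cell-like cells (exact binomial interval 3.12% to 8.63%), 1.94% of B cell-like (0.53% to 4.90%) and 1.78% of NK cell-like cells (0.37% to 5.10%), and in 2.16%, 3.09% and 0.699% of the unimmunized ones; without thinning the immunized shares were 18.9%, 9.22% and 11.8%. These intervals overlap, they cover counting error only, and the part of free RNA in the T cell-like values was not tested. In Medullary sinus macrophage-like cells Saa3 was at 19.8 and 17.2 against 86.9 and 34.0 CPM without passing the threshold (2.15, adjusted p = 0.1), and in the Nonclassical monocyte-like, Cd209a dendritic cell-like and NK cell-like gates the mice of the 2 conditions overlapped.

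The test of whether the immunization effect differed among the 11 gates called 0.875% of genes (93), and none of the 6 tested here; Saa3 had an adjusted p of 0.285 by that F test (unadjusted p = 0.00798), so its different sizes per gate are not shown to differ. The rise of Il1a in Medullary sinus macrophage-like cells, 1.53 log2 units, did not pass (adjusted p = 0.164), and it passed with Leiden clusters (1.35, adjusted p = 0.0101), with no filter (1.51, adjusted p = 0.0349) and in a limma voom fit in which libraries of 1 mouse share a correlation (1.47, adjusted p = 0.0403). Inside the Inflammatory macrophage-like gate no test between conditions was made, since unimmunized mice gave 17 cells in all. The shares of the gate among each mouse's cells were 0.389%, 1.12%, 2.22% and 15.4% in unimmunized mice 1 and 2 and immunized mice 1 and 2, and an exact permutation test over 2 against 2 mice cannot go below p = 0.333.

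Genes of the surrounding pathways, 92 in 9 lists, were examined in the Inflammatory macrophage-like gate by the same edgeR test. Of 82 tested, 47 were called higher and 2 lower, beside 13.7% and 6.96% of all genes. Which of the 82 passed the low-count filter only through libraries of this gate was not checked. The counts and sizes below are therefore descriptions, and no support is drawn from them. Of the inducing transcription factors 14 of 16 were higher (median log2 difference 0.89, against 0.03 over all genes), among them Atf3 (2.44), Cebpb (2.10), Hif1a (1.67) and Irf1 (1.15). In the acute phase and SAA receptor list 5 of 8 were higher (median 1.75), led by the formyl peptide receptors Fpr1 (3.89) and Fpr2 (2.85), haptoglobin (Hp, 2.72) and Tlr2 (2.33).

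In the prostaglandin list 6 of 11 tested genes were higher in the gate and 1 lower (median 0.56). Ptges, the prostaglandin E synthase, was higher by 5.03, the thromboxane synthase Tbxas1 by 2.19 and Pla2g7 by 2.14. Hpgd, which breaks prostaglandins down, was lower than in the other gates by 2.40. In the arginine list 3 of 8 were higher, Arg2 (2.66), Ass1 (1.87), which rebuilds arginine from citrulline, and Gch1 (0.89), which starts synthesis of the cofactor of nitric oxide synthase. Pts, a later step of that synthesis, was lower in the gate by 0.48. Of the IL-1 family and inflammasome genes 6 of 11 were higher, with the receptor antagonist Il1rn (1.95), Nlrp3 (1.78) and Il18bp (1.58) first, and of the TNF genes 7 of 10, with Tnfaip2 (2.44). Socs3 (1.60) and Jak2 (1.20) were the 2 of 6 called IL-6 genes, Acvr2a (0.83) and Acvr1b (0.80) the 2 of 7 activin genes, and Socs1 (1.04) and Ifngr2 (0.69) the 2 of 5 interferon-gamma genes. The medians of these 6 lists were 0.11 for the arginine genes, 0.71 for the IL-1 family, 0.76 for TNF, 0.23 for IL-6, 0.24 for activin and 0.22 for interferon-gamma. C1q macrophage-like cells had 28 higher and 5 lower of the 82, and Classical monocyte-like cells 37 and 4, against 12.3% and 5.15%, and 14.7% and 6.69%, of all genes. In Classical monocyte-like cells 6 of 8 acute phase genes, with Hp at 2.91, and 8 of 11 IL-1 family genes were higher. In C1q macrophage-like cells 6 of 11 prostaglandin genes were higher. These 3 lists were thus not particular to the gate. Of the 16 transcription factors 5 and 4 were higher in Classical monocyte-like and C1q macrophage-like cells. The lists were chosen with earlier results of these data known.

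In immunized mice, averaged within the 11 cell types, 35 of 79 tested pathway genes rose and 2 fell, against 15.8% and 5.9% of all genes. They included 8 of 11 IL-1 family and inflammasome genes (median 0.70, against 0.04 over all genes), with Il18bp (1.41), Nlrp3 (1.24), Casp4 (0.90) and Casp1 (0.71) first, and 9 of 16 transcription factors, with Irf1 (0.99) and Cebpb (0.90) among them. Socs3 (2.20), the feedback inhibitor of IL-6 signalling, Fpr2 (1.68), Hp (1.43), Ass1 (1.20), Tnfaip2 (1.14) and Pla2g4a (1.07), which frees arachidonic acid, rose as well. Jak1 fell by 0.60 and Smad2 by 0.32. Il6st was the one pathway gene whose immunization effect differed among the gates (adjusted p = 0.00665 by the F test), and none of the 85 tested was called in the whole sort. Which pathway genes passed the filter only through immunized libraries was not checked.

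Among 7699 genes with a mean of at least 10 CPM, the genes most like each member over the 49 libraries were named by the Pearson correlation of log2(CPM + 1), given without a test. Acod1 and Ptgs2 shared the same first gene, Clec4d (0.82 and 0.85), which is a marker of the gate. Il1b was closest to Rnf149 (0.91) and Ifitm2 (0.90), Saa3 to Sod2 (0.80) and Cyp4v3 (0.75), and Tnf to Nfkbiz (0.72) and Junb (0.71). The first genes of Il1a were Cdkn2a (0.79) and Smim1 (0.77), and those of Inhba were Wfdc21 (0.77) and the neutrophil gene Retnlg (0.68), a Neutrophil-like marker. Nos2 was closest to the glycolytic genes Pkm (0.69) and Pgk1 (0.68), Slc7a2 to Tma16 (0.66) and Hif1a (0.62), and Il6 to Psmb8 (0.56).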

How the data were processed

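The authors mapped reads to an mm10 reference with Cell Ranger 4.0.0 and joined the captures with its aggr step; they deposited UMI counts per gene and cell, with the counts of hashtags and of antibodies made by CITE-seq-count, none of them normalized. The genes and gene lists were chosen with earlier results of these data known. Barcodes were joined by sequence. Hashtag and antibody barcodes carry no capture ending, so 621 sequences that occur in both captures (1242 cells) were dropped, as were 1238 cells without hashtag or antibody counts and 594 with over 25% mitochondrial UMIs. A cell was given the mouse whose hashtag held at least 80% of at least 10 hashtag counts; HTODemux (Seurat 5.3.0, quantile 0.99), which keeps 9853 cells, was an alternative. Barcodes with mixed hashtags were thus removed, and doublets within 1 mouse were not.

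Gates used z-scores of mean log-normalized counts of marker lists without the 10 genes: a score of at least 1 SD, 0.25 SD above the next gate, with at least 2 markers detected. Leiden clusters (scanpy 1.11.5, leidenalg 0.10.2), computed without the 10 genes, were an alternative. Counts were summed per mouse and gate over at least 10 cells and fitted with edgeR 4.0.16 in R 4.3.3 (TMM, filterByExpr, quasi-likelihood test, Benjamini-Hochberg adjustment over all genes tested, threshold 0.05). In the whole sort each mouse gave 1 library, and the p-values measure the spread between mice. Across gates and within cell types they measure the spread among libraries of 1 mouse and 1 gate. These libraries were treated as independent, though the same mice gave them. A fit with the mouse as a block was also run, as a fixed term across gates and, between conditions, since each mouse has 1 condition, as a correlation within mice (limma voom, duplicateCorrelation); the same animal gave a library to each gate, which pairs them, and their consensus correlation by limma 3.58.1 was 0.0479. DESeq2 1.42.0, no filter, other cell limits, each capture alone and leaving out each mouse were also tried. CPM was computed on the summed library, with 1 added before log2. Detection was compared after thinning each cell to 1000 UMIs. Intervals are exact binomial at 95%, and a count of 0 is given a limit of 3 counts; both cover counting error only. The fits were also run on simulated counts with planted changes. Those libraries were drawn independently from a shared mean profile with no mouse effect. The simulation therefore cannot check the treatment of libraries of the same mouse as independent. Named genes were the 10 members, at most 4 called genes per pathway list and comparison by largest change, and the 2 most correlated genes per member. Promoter sequences are from RefSeq (GRCm38.p6), whose build matches mm10. The values of 1 gene of the transcription factor list are not reported here.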

Additional observations from a re-analysis of the deposited data

Results flagged for a closer look

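Outside the comparisons, 6523 barcodes had no mouse assigned or were left out by the cell rules, and all 10 genes were counted in them above the limit that 3 counts allow. In these barcodes Nos2 was at 17.8 CPM, Acod1 at 60.5, Ptgs2 at 43.5 and Slc7a2 at 10.2, against 11.03, 51.6, 33.8 and 7.09 CPM in the assigned cells. Saa3 was at 424 CPM and Inhba at 4.61, against 411 and 2.46. For the cytokines the values were 349 CPM for Il1b, 9.14 for Il1a, 21.7 for Tnf and 0.636 for Il6, against 366, 6.45, 18.9 and 0.735. These barcodes entered no comparison between mice or conditions.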

How the results depend on the processing

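Over the 18 results for single genes, 231 of 270 alternative values kept their direction and their side of the threshold, 34 lost the call, 3 gained it and 2 reversed. The reversals were both Saa3 between conditions in Type 1 dendritic cell-like cells, at -1.11 in capture 2 alone and -0.31 with Leiden clusters; the cause was not tested. Saa3, Acod1, Ptgs2, Il1b and Tnf in the Inflammatory macrophage-like gate kept the call in every alternative run. Within-gate calls of Saa3 between conditions were lost without unimmunized mouse 1 in all 5 gates, with adjusted p of 0.253 to 0.861, and without unimmunized mouse 2 or in capture 2 alone in 4 of them, all but Interferon-high monocyte-like.

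Counts of called genes moved more. The count for the Inflammatory macrophage-like gate, 2220, was 1211 in capture 2 alone and 944 to 2235 with 1 mouse left out. That for C1q macrophage-like cells, 1872, was 1234 and 970 in captures 1 and 2 and 887 to 1663 with 1 mouse out. That for Classical monocyte-like cells, 2300, was 1502 and 1082 by capture, 1447 with a hashtag share of at least 95%, and 935 to 2105. In the whole sort, 0 calls became 2718 with no filter, 1556 by DESeq2 and 0 to 4171 with 1 mouse out (4171 without immunized mouse 1, 1304 without immunized mouse 2). Within cell types, 2306 became 1283 and 1346 by capture, 1159 with the 95% hashtag share and 1140 to 2077. Genes whose effect differed among gates, 93, became 34 and 42 by capture, 47 with Leiden clusters, 39 with HTODemux, 44 with the 95% share, 684 with no filter and 0 to 484. With the mouse as a replicate block the counts were 2250, 2008, 2567, 2481 and 95, and of the calls on the 10 genes only those named beside the results above changed. The causes of these moves were not tested. Depth limits what can be said of Il6, with 91 UMIs, and of the unimmunized Inflammatory macrophage-like cells, 17 in all.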
